A study of Mus musculus with 3186 samples.

Results

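The solute carriers described here move inorganic ions and metals: bicarbonate and chloride (families 4, 26 and 12), protons (9), sodium and calcium (8 and 24), phosphate (20 and 34), zinc and manganese (30 and 39), copper (31) and magnesium (41). They were taken by gene symbol from the count matrices. That choice uses no level, but it was made with earlier results of these data known. It was met by 84 of the 19937 genes in the matrices. Of these, 3 share the naming stem but are not carriers: Slc9a3r1 and Slc9a3r2 encode the scaffold proteins NHERF1 and NHERF2, and Slc4a1ap encodes an adaptor. The levels were measured in 3186 brain cells of adult mice, each sorted on its reporter signal into 1 well of a 384-well plate and sequenced by Smart-seq2, which copies whole messenger RNAs and adds no molecular tag.

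All mice were C57BL/6 and 12 to 15 weeks old, and every cell carried 1 of 3 reporter genotypes. The Cldn5(BAC)eGFP line, with green fluorescent protein under the promoter region of an endothelial tight junction gene, gave 1445 cells on plates EC3 to EC6. The Pdgfrb(BAC)eGFP/NG2dsRed line, which marks mural cells with a green and a red reporter, gave 1484 cells on plates Mural3 to Mural6. The Pdgfra-H2BGFP line, with a nuclear green reporter, gave 257 cells on plates Pdgfra1 and Pdgfra2. There was no treatment, and the labels name no animal or culture, so each line is 1 sample and no test across animals could be made. Errors below are therefore of 2 kinds: the range over plates of the same line, which may be technical, and an exact Poisson 95% interval on the pooled reads, which covers counting error only. Cells on different lines also differ in their plates, and line and plate cannot be told apart.

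Cells were clustered without these genes and named from marker lists, because no cell annotation was used. The resulting classes were arterial-like (305 cells), venous-like (368) and capillary-like endothelium (851), smooth muscle-like cells (176), pericyte-like cells (915), fibroblast-like cells (87) and oligodendrocyte-like cells (149). The first 3 together are called endothelial-like (1524 cells). The gene behind each reporter was read where its line would place it, with Cldn5 at 26634 CPM in endothelial-like, Pdgfrb at 5082 CPM in pericyte-like and Pdgfra at 356 CPM in fibroblast-like cells. The oligodendrocyte-like cells go against their line, since they had 0.0813 CPM of Pdgfra and 0.964 CPM of eGFP. A microglia-like cluster of 11 cells, 10 from the Pdgfra line and 1 from the Cldn5 line, is not described here. A further 324 mural cells in 3 clusters were left unnamed, 316 of them (21.3% of 1484) from the mural line and 8 (3.11% of 257) from the Pdgfra line. The largest, 254 cells led by Ephx3, is called the intermediate cluster here, since its summed smooth muscle markers were 8350.0 CPM, against 62766 CPM in smooth muscle-like and 4092 CPM in pericyte-like cells. Counts per cell ranged from 99905 to 1606954 with a median of 350339, and the median was 591393 in fibroblast-like and 509598 in oligodendrocyte-like cells, above the 333092 to 373032 of the other named classes. Levels are the reads of a gene in the pooled cells of a class scaled to 1000000 reads (CPM), and genes are compared with one another only per kilobase of exon.

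Cells keep their pH, volume and metal content by coupling such carriers to the sodium gradient, to chloride or to protons. Zinc importers of the SLC39 (ZIP) family raise cytosolic zinc and exporters of the SLC30 (ZnT) family lower it, while ZIP8 and ZnT10 also move manganese. In the brain vessel wall the endothelium is the barrier that ions and metals must cross, whereas pericytes and smooth muscle lie on its outer side.

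Each of the 84 genes had a read in at least 1 named class. In at least 1 of the 7 classes 49 of them reached 20 CPM, and 46 of these are named with their values below. The other 35 comprised 9 that peaked between 5 and 20 CPM, 13 that peaked between 1 and 5 CPM and 13 that stayed under 1 CPM. At a minimum of 5 CPM, 58 were read in at least 1 class and 26 in all 7. The 84 together took 4959 CPM in arterial-like, 4406 CPM in venous-like and 5019 CPM in capillary-like endothelium, 2329 CPM in smooth muscle-like, 4023 CPM in pericyte-like, 2736 CPM in fibroblast-like and 3001 CPM in oligodendrocyte-like cells. These sums include the 3 genes that are not carriers. The scaffold gene Slc9a3r2 alone gave 1790 CPM in arterial-like, 1187 CPM in venous-like and 1194 CPM in capillary-like endothelium, against 331 CPM in pericyte-like cells. The sums thus do not rank the classes by carrier RNA. Of the 49, the class with the highest level was arterial-like for 5, venous-like for 4, capillary-like for 4, smooth muscle-like for 4, pericyte-like for 9, fibroblast-like for 13 and oligodendrocyte-like for 10. The same count over all genes is not given here, so whether these shares are particular to the 49 was not tested. For 23 of the 49 genes the plate ranges of the 2 highest classes overlapped, so their order at the top is not settled by these plates. They include Slc12a4, Slc12a7, Slc26a2, Slc26a6, Slc26a11, Slc30a4, Slc30a7, Slc30a9, Slc31a2, Slc39a9, Slc39a11, Slc4a1ap, Slc9a2 and Slc9a8. For these, the highest level given below is that of the pooled reads.

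**Figure D1:**
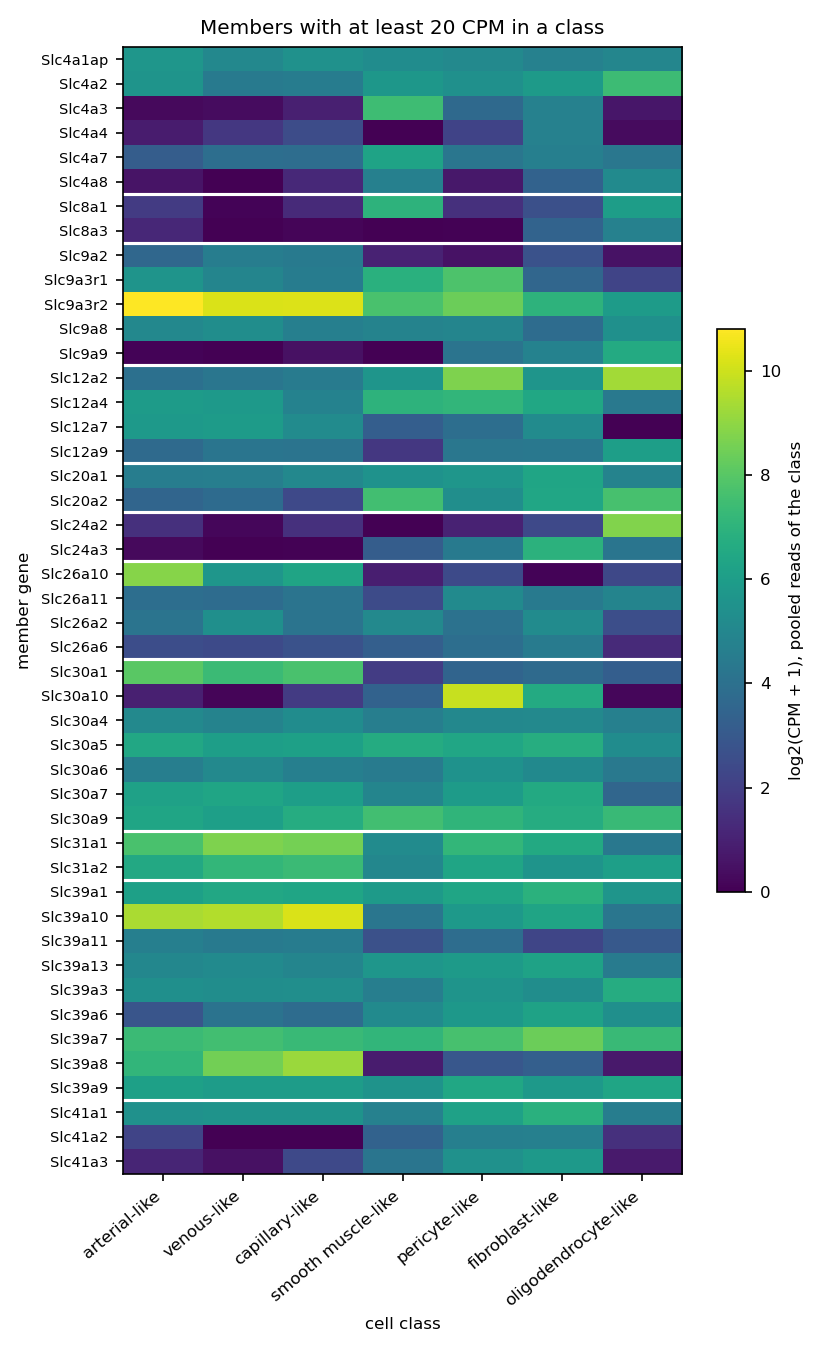
Heat map of log2(CPM + 1) for 46 of the 49 genes that reached 20 CPM in a class (rows, grouped by family) in the 7 named classes (columns). Blocks of high level lie in endothelium for Slc39a8, Slc39a10 and Slc30a1, in pericyte-like cells for Slc30a10, and in oligodendrocyte-like cells for Slc24a2 and Slc12a2, while Slc39a7 and Slc30a9 are read in every column.

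Per kilobase of exon, the scaffold gene Slc9a3r2 stood first of the 84 in arterial-like (676 CPM per kilobase), venous-like (449) and capillary-like endothelium (451) and in smooth muscle-like cells (77.3). Slc39a10 was next in all 3 endothelial zones, at 114 CPM per kilobase in arterial-like, 123 in venous-like and 191 in capillary-like endothelium. Slc30a10 stood first in pericyte-like cells at 165 CPM per kilobase. Slc39a7, the zinc release channel of the endoplasmic reticulum, stood first in fibroblast-like (129) and oligodendrocyte-like cells (61.6), with Slc12a2 (57.9) and Slc24a2 (35.8) next in oligodendrocyte-like cells. With the scaffold genes set aside, the leading carrier gene per length was thus the zinc importer Slc39a10 in all 3 endothelial zones, the manganese exporter Slc30a10 in pericyte-like cells, and Slc39a7 in smooth muscle-like (52.5), fibroblast-like and oligodendrocyte-like cells. The rank of Slc39a7 is limited, since 80.7% of its exon length is shared with Gm20427 on the same strand and their reads cannot be told apart.

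Zinc and manganese genes stood at both ends of the contrast between endothelium and pericyte-like cells, Slc39a8 at one and Slc30a10 at the other. The promoters of these and of the endothelial zinc genes Slc39a10 and Slc30a1 are shown to give the sequence beside that contrast. The 4 genes were chosen after their values were seen. Each line gives the 250 bases before the first annotated start in RefSeq on GRCm38.p6, 5′ to 3′ on the gene's strand, from chr1:46925777-46926026 (minus strand) for Slc39a10, chr3:135825029-135825278 (plus) for Slc39a8, chr1:191906531-191906780 (plus) for Slc30a1 and chr1:185454598-185454847 (plus) for Slc30a10. The window of Slc39a10 is 1 of 2 in the table and lies upstream of the GENCODE gene span given below. Capitals mark the letters TGCNCNC on either strand. This pattern is wider than TGCRCNC (R for A or G), the core of the metal response element that the zinc sensor MTF1 is known to bind.
Slc39a10: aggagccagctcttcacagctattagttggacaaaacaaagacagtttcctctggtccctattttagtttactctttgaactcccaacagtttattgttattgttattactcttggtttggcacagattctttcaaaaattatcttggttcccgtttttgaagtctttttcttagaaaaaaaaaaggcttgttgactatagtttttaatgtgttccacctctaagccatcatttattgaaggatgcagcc
Slc39a8: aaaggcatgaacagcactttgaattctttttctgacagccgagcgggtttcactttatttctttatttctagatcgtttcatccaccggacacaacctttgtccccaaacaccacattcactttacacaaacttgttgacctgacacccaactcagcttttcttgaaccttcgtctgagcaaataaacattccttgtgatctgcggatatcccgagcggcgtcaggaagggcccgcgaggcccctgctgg
Slc30a1: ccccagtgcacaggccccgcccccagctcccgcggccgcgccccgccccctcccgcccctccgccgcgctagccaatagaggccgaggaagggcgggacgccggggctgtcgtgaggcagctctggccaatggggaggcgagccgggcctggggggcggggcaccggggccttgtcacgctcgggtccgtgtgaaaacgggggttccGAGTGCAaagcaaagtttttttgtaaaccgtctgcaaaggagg
Slc30a10: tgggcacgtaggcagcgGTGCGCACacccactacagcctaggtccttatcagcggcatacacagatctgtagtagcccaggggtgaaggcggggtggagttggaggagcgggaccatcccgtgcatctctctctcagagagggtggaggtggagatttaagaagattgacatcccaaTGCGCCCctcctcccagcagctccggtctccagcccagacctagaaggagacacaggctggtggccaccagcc
The core was found once before Slc30a1, on the minus strand and 43 bases before the start. It was found 3 times before Slc30a10, of which 2 overlap 232 and 233 bases before the start and the other lies 73 bases before it. The windows shown for Slc39a10 and Slc39a8 did not hold it, each being 1 of 2 for its gene. The wider pattern is common: 14590 of 32851 windows of this length (44.4%) held at least 1 match and 4.65% held 3 or more. Of the 84 windows belonging to the 67 genes of this set that had a window, 49 (58.3%) held at least 1 match. Shares for the narrower core were not counted. A match of letters is a description of the sequence only.

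Slc39a10 encodes ZIP10, a plasma membrane zinc importer, and lies on chr1:46807544-46892852, minus strand (mm10, GENCODE M21). Over plates EC3 to EC6 it had 571, 709.8, 679 and 839 CPM in arterial-like, 662, 764, 777 and 797 CPM in venous-like and 1084, 1196, 1159 and 1219.7 CPM in capillary-like endothelium. Over plates Mural3 to Mural6 it had 11.5, 17.6, 25.2 and 15.4 CPM in smooth muscle-like and 59.1, 79.0, 54.9 and 33.6 CPM in pericyte-like cells. Every endothelial plate value was above every mural one, and capillary-like plates did not overlap those of the other zones. The pooled level was 962 CPM in endothelial-like cells (95% interval 959 to 965), against 55.4 CPM in pericyte-like cells (54.6 to 56.3), a log2 ratio of 4.09. A read was present in 91.5% of endothelial-like cells (88.5% after thinning each cell to 90000 reads) and in 16.6% of pericyte-like cells (12.9% after thinning).

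Slc39a8 encodes ZIP8, an importer of zinc and manganese at the cell surface (chr3:135825279-135888572, plus strand). Over plates EC3 to EC6 it had 136, 119.6, 149 and 154 CPM in arterial-like, 394, 410.0, 371 and 289.7 CPM in venous-like and 554, 562, 662 and 613 CPM in capillary-like endothelium. The 3 zones were ordered alike on every plate and their plate ranges did not overlap. Pericyte-like cells had 13.3, 15.9, 0.517 and 0 CPM over plates Mural3 to Mural6, so that most of their reads came from the first 2. The log2 ratio of endothelial-like (pooled level 435 CPM) over pericyte-like cells (6.69 CPM) was 5.82, and 6.50 without plate Mural4. Arterial-like over capillary-like endothelium gave -2.08, with -2.22 to -1.98 within the 4 plates.

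Slc30a1 encodes ZnT1, the zinc exporter of the plasma membrane. It had 233, 268, 263 and 287 CPM in arterial-like, 121, 173, 167 and 205 CPM in venous-like and 217, 219, 194 and 232 CPM in capillary-like endothelium, and 15.1, 14.5, 5.58 and 7.82 CPM in pericyte-like cells. Import and export genes for zinc were thus both high in endothelium, at pooled log2 ratios over pericyte-like cells of 4.09 for Slc39a10 and 4.20 for Slc30a1. Fibroblast-like cells had 13.4 and 0.317 CPM of Slc30a1 on their 2 plates and oligodendrocyte-like cells 10.2 and 7.48 CPM.

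Slc30a10 encodes a manganese exporter of the cell surface (chr1:185454848-185468762, plus strand) and ran the other way. Pericyte-like cells had 968, 931, 968 and 977 CPM over plates Mural3 to Mural6 and a read in 84.8% of cells (80.8% after thinning), against 4.79% of endothelial-like cells (2.17%), whose median depth is in the same range. Endothelial-like cells had a pooled 1.69 CPM (1.58 to 1.81), against 962 CPM (958 to 965) in pericyte-like cells, a log2 ratio of -8.48. The intermediate cluster had 599, 626, 642 and 592 CPM over the 4 mural plates, below every pericyte-like plate. Smooth muscle-like cells had 5.08, 14.1, 17.7 and 0.844 CPM over the same 4 plates and a log2 ratio over pericyte-like cells of -6.53. The cluster led by Agtr1a (45 cells, unnamed) had 155 CPM. Fibroblast-like cells had 68.7 and 283 CPM on plates Pdgfra1 and Pdgfra2, while their summed pericyte markers were at 4.64% and their pooled Slc30a10 at 9.89% of the pericyte-like level. Whether mural RNA in these wells gave those reads was not tested. Gm2061, on the opposite strand, shares 9.13% of the exon length of Slc30a10, and Smart-seq2 reads do not tell the strands apart.

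**Figure D2:**
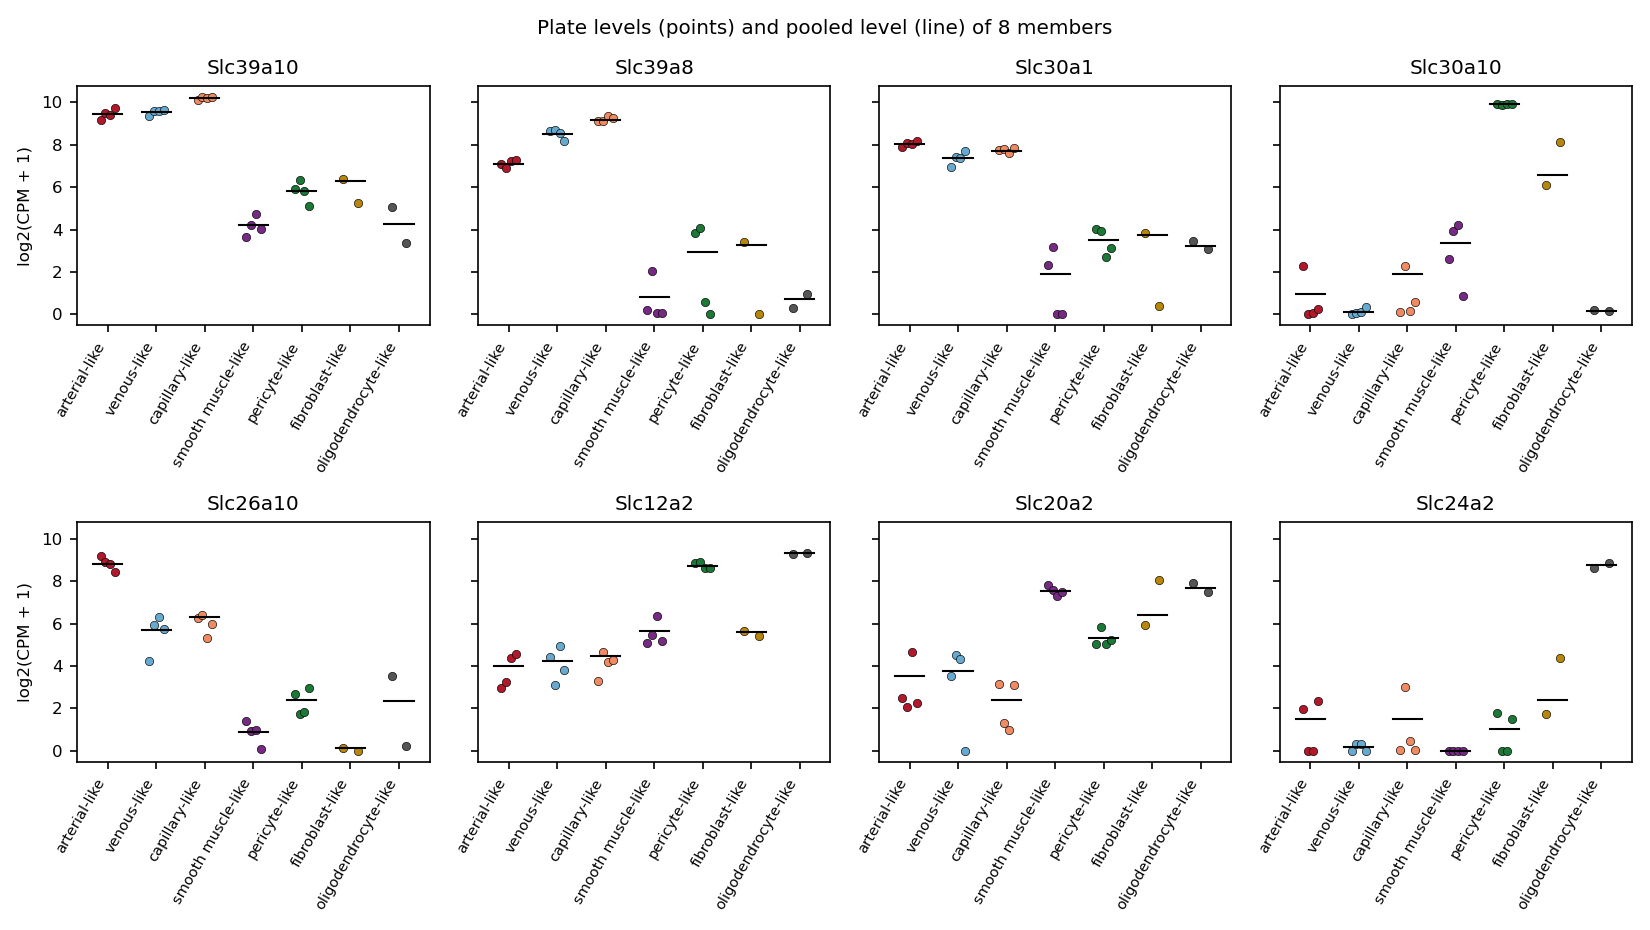
Level of 8 genes in the 7 named classes, drawn on the same log2 scale of CPM as the heat map above. Each point is a plate of the class's own reporter line and each line the pooled level. Slc39a10, Slc39a8, Slc30a1 and Slc26a10 are high in endothelium, Slc30a10 in pericyte-like cells, Slc12a2 in pericyte-like and oligodendrocyte-like cells, Slc20a2 in smooth muscle-like and oligodendrocyte-like cells and Slc24a2 in oligodendrocyte-like cells.

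Markers of the other cell type were measured beside these contrasts. The 8 endothelial markers summed to 13454 CPM in endothelial-like (plates 13020 to 14073) and 2114 CPM in pericyte-like cells (plates 1994 to 2341), which is 15.7% and came mainly from Esam (1284 CPM) and Eng (636 CPM), none of the 8 being at 0. Among the others, endothelial-like cells held 3451 CPM of Flt1 and 1576 CPM of Tek, against 143 CPM of Flt1 and 22.9 CPM of Tek in pericyte-like cells. Pecam1, Cdh5, Ptprb and Tie1 had 3.46 to 9.59 CPM in pericyte-like cells. In pericyte-like cells Slc39a10 stood at 5.76% and Slc39a8 at 1.54% of their endothelial levels, and what endothelial RNA adds to either was not tested. In endothelial-like cells the 7 pericyte markers summed to 161 CPM, 0.253% of the pericyte-like level, and Slc30a10 to 0.176% of its own. A rule marked a well when another class's summed markers reached 10% of that class's median. It marked 644 of 915 pericyte-like wells (70.4%) and 58 of 1524 endothelial-like wells (3.81%). Esam and Eng are among the summed markers, and how many marked wells are doublets was not tested. Without the marked wells, the log2 ratio of endothelial-like over pericyte-like cells was 5.98 for Slc39a8, 3.65 for Slc39a10 and -9.17 for Slc30a10.

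The remaining zinc genes that reached 20 CPM were read in all 7 classes. Slc39a7, which releases zinc from the endoplasmic reticulum, was at 136 CPM in smooth muscle-like cells, its lowest (plates 100.1 to 179), and at 333 CPM in fibroblast-like cells, its highest level (plates 329 and 370.0). Most of its exon length (80.7%) is shared with Gm20427, a transcript on the same strand, so reads of the pair cannot be told apart. Slc39a1, a widespread zinc importer (ZIP1), was at 117 CPM in fibroblast-like cells, its highest level (plates 116 and 131), and at 48.7 CPM in oligodendrocyte-like cells, its lowest (plates 38.4 and 55.0). Slc39a13, an intracellular ZIP known for its part in connective tissue, was at 74.0 CPM in fibroblast-like cells, its highest level (plates 65.9 and 140.0), and at 21.5 CPM in oligodendrocyte-like cells, its lowest (plates 19.3 and 22.9). All 3 genes thus had their highest level in fibroblast-like cells.

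Slc39a3 (ZIP3, an importer) was at 23.5 CPM in smooth muscle-like cells, its lowest (plates 7.07 to 48.3), and at 102 CPM in oligodendrocyte-like cells, its highest level (plates 75.2 and 148). Slc39a6 (ZIP6, the closest relative of ZIP10) was at 6.30 CPM in arterial-like endothelium, its lowest (plates 0.422 to 11.5), and at 73.7 CPM in fibroblast-like cells, its highest level (plates 73.7 and 74.7), a pattern unlike that of Slc39a10, since its endothelial levels were the low ones. Slc39a9 (ZIP9) was at 45.5 CPM in smooth muscle-like cells, its lowest (plates 35.1 to 52.4), and at 85.0 CPM in pericyte-like cells, its highest level (plates 79.4 to 100.1). Slc39a11 (ZIP11) was at 24.2 CPM in arterial-like endothelium, its highest level (plates 0.197 to 31.9), and at 3.76 CPM in fibroblast-like cells, its lowest (plates 3.60 and 5.07).

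Among exporters into intracellular compartments, Slc30a4 (ZnT4, vesicles) was at 36.9 CPM in capillary-like endothelium, its highest level (plates 32.6 to 39.6), and at 23.8 CPM in smooth muscle-like cells, its lowest (plates 13.6 to 40.9). Slc30a5 and Slc30a6 encode ZnT5 and ZnT6, which act as a pair in the early secretory pathway. The first was at 105 CPM in fibroblast-like cells, its highest level (plates 89.3 and 107), and at 37.3 CPM in oligodendrocyte-like cells, its lowest (plates 35.4 and 38.4). Slc30a6 was at 44.8 CPM in pericyte-like cells, its highest level (plates 36.9 to 52.6), and at 19.8 CPM in oligodendrocyte-like cells, its lowest (plates 19.0 and 20.4), while the fibroblast-like and smooth muscle-like plates of Slc30a5 overlapped, so its highest class is not settled. Slc30a7 (ZnT7, Golgi) was at 92.4 CPM in fibroblast-like cells, its highest level (plates 64.5 and 96.1), and at 10.9 CPM in oligodendrocyte-like cells, its lowest (plates 9.23 and 13.6), and Slc30a9, linked to zinc export from mitochondria, was at 67.6 CPM in venous-like endothelium, its lowest (plates 48.5 to 84.4), and at 186 CPM in smooth muscle-like cells, its highest level (plates 116 to 218).

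Copper carriers were highest in endothelium but were read in every class. Slc31a1 encodes CTR1, the main copper importer, and had 197, 238, 233 and 158 CPM in arterial-like, 422, 411, 403 and 453 CPM in venous-like and 320.1, 331, 410.0 and 382 CPM in capillary-like endothelium. Smooth muscle-like cells had 30.5, 0.869, 85.5 and 22.0 CPM and pericyte-like cells 132, 145, 157 and 129 CPM over plates Mural3 to Mural6. The venous-like and capillary-like ranges overlapped, every arterial-like plate lay below both, and smooth muscle-like plates were the most uneven. Slc31a2, whose product CTR2 acts on copper in internal compartments, was at 164 CPM in capillary-like endothelium, its highest level (plates 145 to 199.7), and at 31.2 CPM in smooth muscle-like cells, its lowest (plates 2.02 to 49.0).

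**Figure D3:**
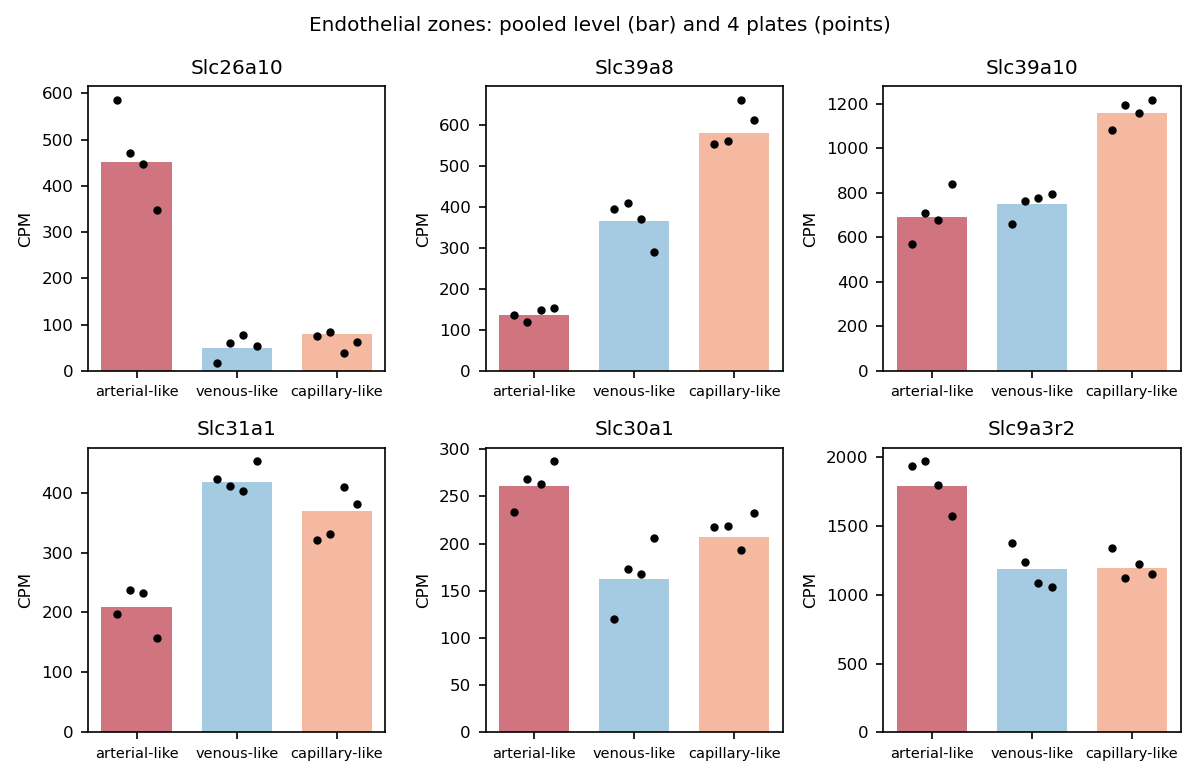
Level in CPM of 6 genes in arterial-like, venous-like and capillary-like endothelium, with bars for the pooled level and points for plates EC3 to EC6. Slc26a10 and Slc9a3r2 are highest in the arterial-like class on every plate, Slc39a8 and Slc39a10 in the capillary-like class, and Slc31a1 is lowest in the arterial-like class.

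Slc26a10, a little-studied member of the SLC26 anion family, set the arterial-like zone apart. It had 587, 471, 448 and 348 CPM in arterial-like, 18.1, 60.1, 77.6 and 53.2 CPM in venous-like and 76.0, 84.7, 39.1 and 63.1 CPM in capillary-like endothelium over plates EC3 to EC6. The lowest arterial-like plate lay above the highest of the other zones. A read was present in 58.4% of arterial-like (57.0% after thinning), 12.0% of venous-like (8.15%) and 15.4% of capillary-like cells (12.6%). The log2 ratio of arterial-like (pooled 452 CPM) over capillary-like endothelium (79.0 CPM) was 2.50, and 2.45 to 3.48 within plates. Of its exon length, 17.8% is shared with B4galnt1 on the opposite strand, and Smart-seq2 does not mark strand.

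The other SLC26 genes were low. Slc26a2, a sulfate transporter, was at 40.7 CPM in venous-like endothelium, its highest level (plates 6.33 to 91.2), and at 4.96 CPM in oligodendrocyte-like cells, its lowest (plates 2.98 and 8.26). Slc26a6, an exchanger of chloride for bicarbonate and oxalate, was at 21.9 CPM in fibroblast-like cells, its highest level (plates 19.0 and 30.4), and at 1.45 CPM in oligodendrocyte-like cells, its lowest (plates 0 and 2.33). Slc26a11 was at 4.62 CPM in smooth muscle-like cells, its lowest (plates 0 to 14.8), and at 35.4 CPM in pericyte-like cells, its highest level (plates 29.9 to 42.1).

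The 11 genes with the SLC4 stem, which include the adaptor gene Slc4a1ap, summed to 370.0 CPM in smooth muscle-like and 273 CPM in oligodendrocyte-like cells. In the other classes they summed to 70.4 to 179.9 CPM. Slc4a1ap, which is no bicarbonate carrier, gave 49.8 of the 107 CPM in arterial-like and 43.5 of the 87.1 CPM in capillary-like endothelium. Slc4a3 encodes the chloride-bicarbonate exchanger AE3, known from heart and other excitable tissue. It had 165, 169, 148 and 216 CPM in smooth muscle-like and 13.5, 12.0, 10.5 and 12.6 CPM in pericyte-like cells over plates Mural3 to Mural6, which is a log2 ratio of 3.76 with 3.52 to 4.00 within plates. The intermediate cluster had 19.4, 34.8, 12.8 and 35.5 CPM, well below smooth muscle-like cells. Fibroblast-like cells had 14.4 and 117 CPM on plates Pdgfra1 and Pdgfra2, and endothelial-like cells a pooled 0.611 CPM.

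Slc4a2, the widespread exchanger AE2, was at 20.9 CPM in venous-like endothelium, its lowest (plates 12.5 to 25.4), and at 170.2 CPM in oligodendrocyte-like cells, its highest level (plates 154 and 197). Slc4a7, the electroneutral sodium-bicarbonate cotransporter NBCn1, was at 8.02 CPM in arterial-like endothelium, its lowest (plates 2.70 to 25.0), and at 76.9 CPM in smooth muscle-like cells, its highest level (plates 27.1 to 154). Slc4a8, a sodium-driven chloride-bicarbonate exchanger, was at 0.0158 CPM in venous-like endothelium, its lowest (plates 0 to 0.0623), and at 35.3 CPM in oligodendrocyte-like cells, its highest level (plates 26.0 and 50.8). Oligodendrocyte-like cells thus held the top level of Slc4a2, and for Slc4a8 their plates overlapped those of smooth muscle-like cells (24.9 CPM pooled). Smooth muscle-like cells held the top level of Slc4a7, where a plate range of 27.1 to 154 CPM overlapped pericyte-like plates (10.5 to 34.2). Slc4a4, the electrogenic cotransporter NBCe1, was at 0.0155 CPM in smooth muscle-like cells, its lowest (plates 0 to 0.0695), and at 25.6 CPM in fibroblast-like cells, its highest level (plates 22.3 and 29.6), with 1 read in smooth muscle-like cells. The adaptor gene Slc4a1ap was at 49.8 CPM in arterial-like endothelium, its highest level (plates 30.8 to 61.9), and at 26.1 CPM in fibroblast-like cells, its lowest (plates 19.5 and 26.9).

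The scaffold genes named after the SLC9 proton exchangers parted endothelium from pericyte-like cells. Slc9a3r2 (NHERF2), which ties membrane proteins to the actin cortex, had 1934, 1969.7, 1796 and 1568 CPM in arterial-like, 1376, 1237, 1086 and 1052 CPM in venous-like and 1337, 1124, 1223 and 1150.2 CPM in capillary-like endothelium, and 289, 387, 312 and 333 CPM in pericyte-like cells. Its relative Slc9a3r1 (NHERF1) had 41.2, 62.1, 41.8 and 50.2 CPM in arterial-like, 25.5, 32.2, 24.5 and 36.5 CPM in venous-like and 32.6, 17.6, 18.1 and 21.7 CPM in capillary-like endothelium, and 234, 203, 243 and 202 CPM in pericyte-like cells. The 2 scaffold genes thus ran in opposite directions between endothelial-like and pericyte-like cells, at log2 ratios of 1.99 for Slc9a3r2 and -2.87 for Slc9a3r1, and no plate range overlapped in either.

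Among the exchangers themselves, Slc9a8 was at 13.1 CPM in fibroblast-like cells, its lowest (plates 7.72 and 56.3), and at 42.4 CPM in oligodendrocyte-like cells, its highest level (plates 34.9 and 46.9). Slc9a9, which encodes an exchanger of endosomes, was at 0 CPM in smooth muscle-like cells, its lowest (plates 0 to 0), and at 95.7 CPM in oligodendrocyte-like cells, its highest level (plates 82.8 and 103), with 0 reads in smooth muscle-like cells, which allows up to 0.0465 CPM by counting. Slc9a2 (NHE2), an exchanger of epithelial membranes, was at 22.6 CPM in venous-like endothelium, its highest level (plates 16.8 to 26.7), and at 0.423 CPM in pericyte-like cells, its lowest (plates 0 to 1.19), and was at least 2-fold higher in endothelial-like (19.1 CPM) than in pericyte-like cells (0.423 CPM).

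Among cation-chloride cotransporters, Slc12a2 encodes NKCC1, which brings sodium, potassium and chloride into cells. Over plates Mural3 to Mural6 it had 32.5, 43.3, 82.3 and 35.3 CPM in smooth muscle-like and 457, 479, 389 and 391 CPM in pericyte-like cells, and the intermediate cluster had 367, 373, 367 and 398 CPM. Fibroblast-like cells had 49.0 and 41.4 CPM and oligodendrocyte-like cells 629.6 and 633 CPM on plates Pdgfra1 and Pdgfra2, and endothelial-like cells 11.8, 17.6, 21.3 and 18.0 CPM on plates EC3 to EC6. Oligodendrocyte-like, pericyte-like and intermediate cells were high, with a read in 98.0% (96.0% after thinning) of oligodendrocyte-like and 70.6% (64.7%) of pericyte-like cells. Log2 ratios were -4.39 for endothelial-like and -3.09 for smooth muscle-like over pericyte-like cells, and -3.69 for fibroblast-like over oligodendrocyte-like cells.

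The extruding potassium-chloride cotransporters had another distribution. Slc12a4 (KCC1) was at 139 CPM in pericyte-like cells, its highest level (plates 119 to 161), and at 19.8 CPM in oligodendrocyte-like cells, its lowest (plates 13.2 and 30.8). Smooth muscle-like cells stood close behind at 125 CPM of Slc12a4, with plates that overlapped the pericyte-like ones. Slc12a7 (KCC4) was at 60.6 CPM in venous-like endothelium, its highest level (plates 33.1 to 85.6), and at 0.0116 CPM in oligodendrocyte-like cells, its lowest (plates 0 and 0.0186), the value in oligodendrocyte-like cells being 1 read. Slc12a9, a related gene whose product is known to interact with NKCC1, was at 2.34 CPM in smooth muscle-like cells, its lowest (plates 0 to 7.76), and at 66.3 CPM in oligodendrocyte-like cells, its highest level (plates 63.9 and 70.2).

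**Figure D4:**
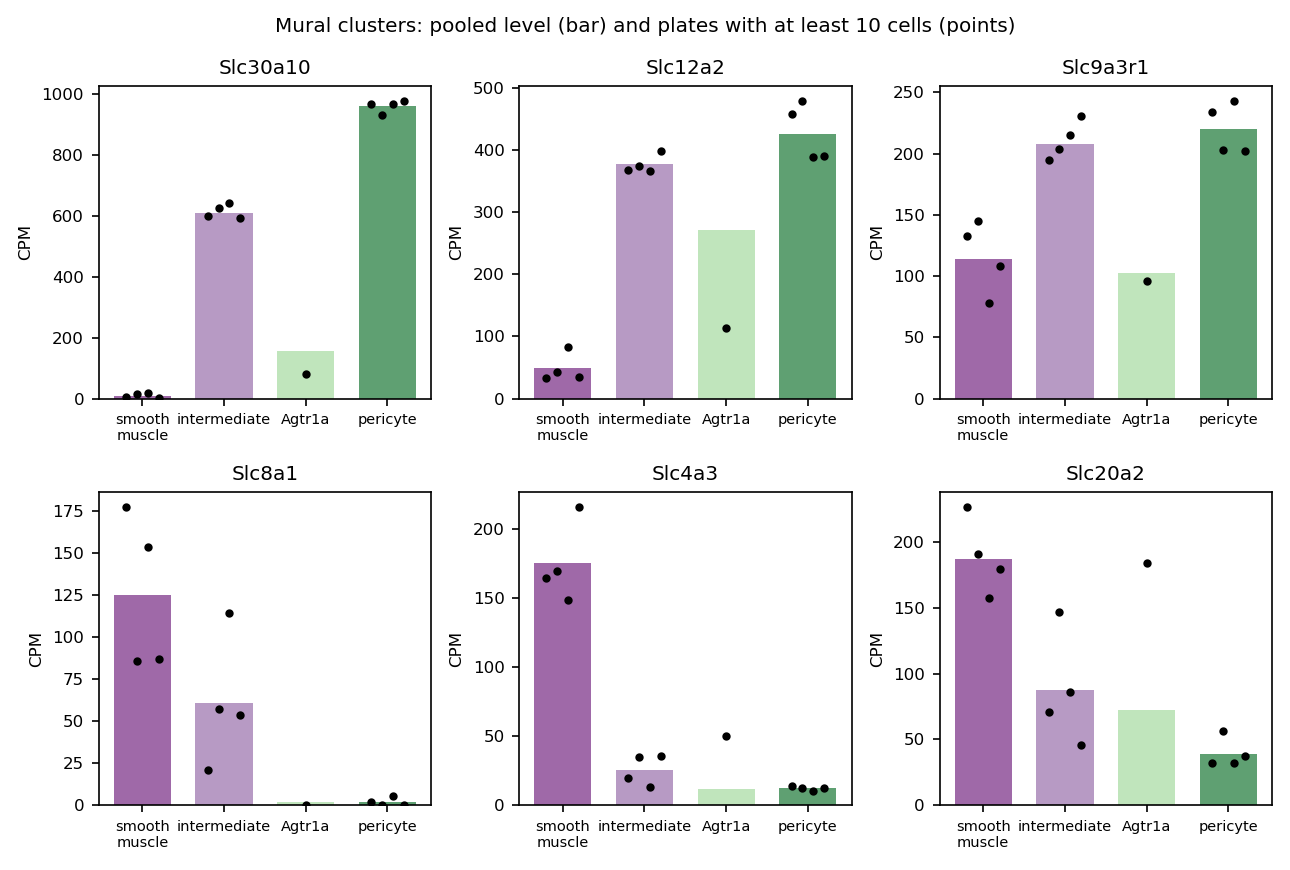
Level in CPM of 6 genes in the smooth muscle-like class, the intermediate cluster, the Agtr1a-led cluster and the pericyte-like class, with bars for the pooled level and points for plates Mural3 to Mural6 where at least 10 cells lay. Slc8a1, Slc4a3 and Slc20a2 are highest in smooth muscle-like cells, and Slc30a10, Slc12a2 and Slc9a3r1 are lower there than in pericyte-like cells, with the intermediate cluster near pericyte-like cells for Slc12a2 and Slc9a3r1.

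Sodium-calcium exchange separated smooth muscle-like from pericyte-like cells. Slc8a1 encodes NCX1, which extrudes calcium from muscle. It had 177, 85.7, 154 and 87.1 CPM in smooth muscle-like and 1.66, 0.0280, 5.39 and 0.0233 CPM in pericyte-like cells over plates Mural3 to Mural6, and the intermediate cluster had 20.6, 56.8, 114 and 53.4 CPM. The smooth muscle-like plates lay above all pericyte-like plates, while plates of the intermediate cluster reached into the smooth muscle-like range. The log2 ratio was 5.48, and 6.26 without plate Mural5. Smooth muscle markers in pericyte-like cells summed to 6.52% of their smooth muscle-like level, mostly Myl9 (3710 CPM), with Slc8a1 at 1.45% and Slc4a3 at 6.88% of theirs, and what such RNA adds to the Slc4a3 level was not tested. Outside muscle, Slc8a1 had 5.91 and 0 CPM in fibroblast-like cells on plates Pdgfra1 and Pdgfra2, against 78.5 and 55.9 CPM in oligodendrocyte-like cells.

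Slc8a3 (NCX3) was at 0.0155 CPM in smooth muscle-like cells, its lowest (plates 0 to 0.0669), and at 26.1 CPM in oligodendrocyte-like cells, its highest level (plates 18.3 and 39.1). Slc24a2 encodes NCKX2, an exchanger that also uses potassium and is known from neurons. It had 2.33 and 19.8 CPM in fibroblast-like and 389 and 466 CPM in oligodendrocyte-like cells on plates Pdgfra1 and Pdgfra2, with a read in 96.0% of the oligodendrocyte-like cells, and no more than 1.81 CPM in any endothelial or mural class. Oligodendrocyte markers in fibroblast-like cells summed to 1.20% and Slc24a2 to 0.975% of the oligodendrocyte-like level. Slc24a3 (NCKX3) ran the other way, at 118 and 168 CPM in fibroblast-like and 10.8 and 21.6 CPM in oligodendrocyte-like cells, 26.4, 16.7, 30.7 and 11.6 CPM in pericyte-like cells, and 0.0715 CPM pooled over endothelial-like cells.

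Phosphate import genes were highest outside the endothelium. Slc20a2 (PiT2) had 227, 191, 158 and 179.9 CPM in smooth muscle-like and 32.1, 56.2, 31.7 and 37.0 CPM in pericyte-like cells over plates Mural3 to Mural6, and the 2 ranges did not overlap. On plates Pdgfra1 and Pdgfra2 it had 60.2 and 267 CPM in fibroblast-like and 241 and 177 CPM in oligodendrocyte-like cells, so the order of these classes differed between plates. Endothelial-like cells had 7.99, 6.84, 11.8 and 4.94 CPM. Slc20a1 (PiT1) was at 23.0 CPM in arterial-like endothelium, its lowest (plates 15.2 to 37.9), and at 79.7 CPM in fibroblast-like cells, its highest level (plates 76.6 and 107).

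Among magnesium carriers, only Slc41a1 was highest in fibroblast-like cells with plate ranges apart from the next class. Slc41a1, a sodium-magnesium exchanger, was at 117 CPM in fibroblast-like cells, its highest level (plates 100.3 and 250.2), and at 23.0 CPM in oligodendrocyte-like cells, its lowest (plates 17.5 and 32.1). Slc41a2 was at 0.00355 CPM in capillary-like endothelium, its lowest (plates 0 to 0.0158), and at 24.8 CPM in fibroblast-like cells, its highest level (plates 0 and 28.0), and Slc41a3 was at 0.395 CPM in venous-like endothelium, its lowest (plates 0 to 1.67), and at 57.2 CPM in fibroblast-like cells, its highest level (plates 19.2 and 62.0). Pericyte-like cells stood close behind for Slc41a2 (24.5 CPM, plates 12.9 to 34.0) and for Slc41a3 (43.5 CPM, plates 29.9 to 57.8), with plate ranges that overlap the fibroblast-like values. Part of both fibroblast-like levels came from 9 cells with more oligodendrocyte-progenitor than fibroblast marker reads. Slc41a2 was at 46.8 CPM in these 9 and 21.9 CPM in the other 78 fibroblast-like cells. For Slc41a3 the levels were 113 and 49.7 CPM. Plate Pdgfra2, whose 29 fibroblast-like cells gave 6307628 reads in all, had 0 CPM of Slc41a2.

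The 9 genes that peaked between 5 and 20 CPM were Slc12a5 (KCC2; 16.5 CPM, arterial-like), Slc8a2 (NCX2; 5.33 CPM, smooth muscle-like), Slc39a12, Slc9a7, Slc9a5 and Slc26a7 (13.1, 9.81, 8.48 and 6.76 CPM, fibroblast-like), and Slc4a10, Slc12a8 and Slc34a3 (14.0, 12.3 and 10.5 CPM, oligodendrocyte-like). The 13 next ones were Slc26a1, Slc24a5, Slc39a14, Slc4a11, Slc4a5, Slc4a9, Slc39a2, Slc34a2, Slc39a4, Slc26a8, Slc24a1, Slc9a3 and Slc9a4, with peaks of 1.11 to 4.83 CPM. The manganese and zinc importer gene Slc39a14 was thus read at 4.26 CPM at most. Those under 1 CPM in every class were Slc26a3, Slc4a1, Slc39a5, Slc30a2, Slc12a3, Slc24a4, Slc34a1, Slc12a1, Slc30a3, Slc26a9, Slc30a8, Slc26a5 and Slc26a4, which include the renal cotransporter genes Slc12a1 and Slc12a3 and the red cell exchanger gene Slc4a1.

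In endothelial-like over pericyte-like cells, 45 of the 84 genes had at least 5 CPM on either side, and of these 9 were at least 2-fold higher and 14 at least 2-fold lower on the log2(CPM + 1) scale. Over all 10967 genes that met the minimum, 16.3% were at least 2-fold higher and 18.8% lower, and the median log2 ratio was -0.42 over the 45 and -0.10 over all genes. All 23 counted genes had plate ranges that did not overlap, taking plates of each class's own line. The higher ones were Slc39a8, Slc26a10 (4.83), Slc30a1, Slc39a10, Slc9a2 (3.82), Slc9a3r2, Slc12a5 (1.91), Slc12a7 (1.67) and Slc31a1 (1.30). The lower ones included Slc30a10, Slc12a2, Slc24a3 (-4.36), Slc41a2 (-3.84), Slc9a9 (-3.84), Slc41a3 (-3.62) and Slc4a3 (-3.02), followed by Slc9a3r1, Slc20a2 (-2.21), Slc39a6 (-2.01), Slc12a4 (-1.74), Slc26a6 (-1.26) and Slc26a11 (-1.17). Metal carriers thus stood at both ends, Slc39a8 at the upper and Slc30a10 at the lower. The 76 endothelial-like cells of the mural line allow a ratio within plates Mural3, Mural4 and Mural5, with 19 to 26 endothelial-like cells each: it was 3.57 to 8.31 for Slc39a8, 3.64 to 4.77 for Slc39a10 and -8.46 to -4.42 for Slc30a10, and it ran to the opposite sign on at least 1 plate for Slc12a7 (-3.80 to 2.17), Slc12a5 (-2.34 to 0.00) and Slc39a6 (-3.83 to 0.22). Summed pericyte markers were 161 CPM in all endothelial-like cells pooled, against 15.8 to 21.7 CPM on plates EC3 to EC6. Endothelial-like wells off those plates thus held more of these markers. What mural RNA in such wells adds to the ratios within plates was not tested. Leaving out plate Mural3 took Slc26a6 to -0.91, under 2-fold.

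**Figure D5:**
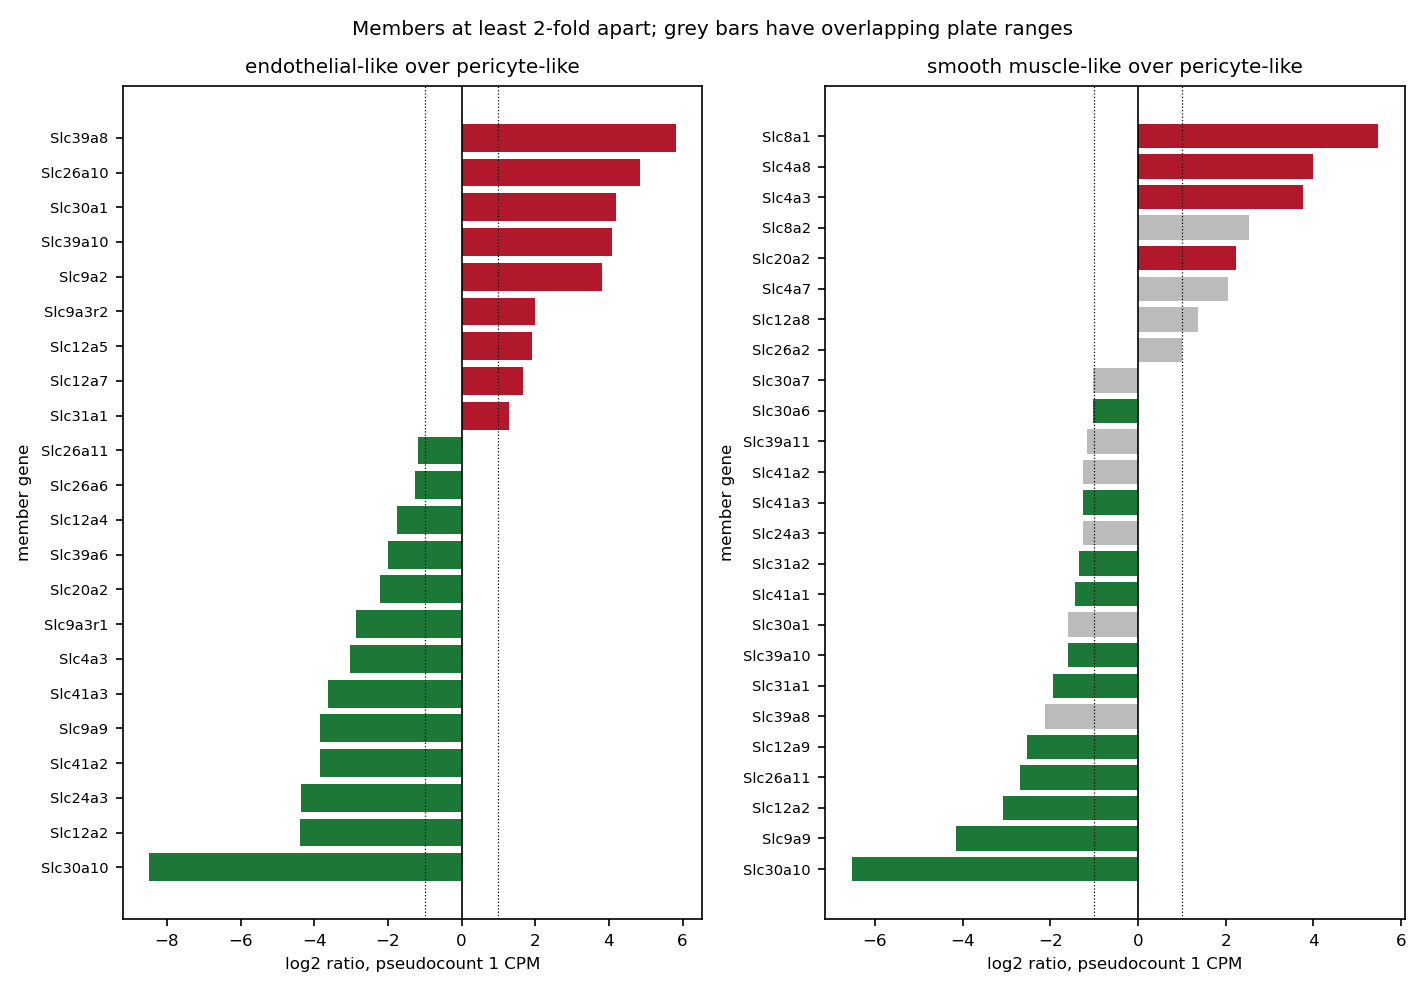
Log2 ratio, with 1 CPM added, of the named genes at least 2-fold apart in endothelial-like over pericyte-like cells and in smooth muscle-like over pericyte-like cells; red is higher and green lower in the class on top of the ratio, grey marks genes whose plate ranges overlap, and dotted lines mark 2-fold. Slc39a8 (5.82) and Slc30a10 (-8.48) stand at the ends of the first comparison and Slc8a1 (5.48) and Slc30a10 (-6.53) at those of the second.

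In arterial-like over capillary-like endothelium, 40 genes were measured at the minimum, and 7 were at least 2-fold higher and 1 lower, against 6.12% and 4.78% of 10225 genes. The median log2 ratio was -0.01 over the 40 and -0.00 over all genes. Slc26a10 (higher) and Slc39a8 (lower) stood out on every plate. Slc4a2 (1.05) and Slc9a3r1 (1.07) also had plate ranges that did not overlap, but each fell short of 2-fold without 1 plate, at 0.79 without EC3 for Slc4a2, also at 0.999 without Mural4, and at 0.87 without EC4 for Slc9a3r1. The other 4, Slc12a8 (1.58), Slc12a5 (1.37), Slc20a2 (1.13) and Slc12a4 (1.13), had overlapping plate ranges, and plate EC5 decided Slc20a2 (-0.03 without it) and Slc12a4 (0.84 without it). Without EC3 or EC5 the count of lower genes was 5, without EC6 it was 3 and without Mural3 it was 2.

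In venous-like over capillary-like endothelium, 39 genes were measured, and 3 were at least 2-fold higher and 1 lower, against 3.83% and 3.8% of 10143 genes. Medians were -0.01 over the 39 and -0.02 over all genes. The higher ones were Slc20a2 (1.39), Slc26a2 (1.21) and Slc12a4 (1.03). Of the 3, only Slc12a4 had plate ranges apart, and it was at 0.99 without EC4 and 0.94 without EC5. Slc26a2 was at 0.20 without EC3 and Slc20a2 at 0.83 without EC4 and 0.94 without EC5, so none of the 3 held 2-fold on every set of plates. Without EC5 the count of higher genes was 1.

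In smooth muscle-like over pericyte-like cells, 46 genes were measured, and 8 were at least 2-fold higher and 17 lower, against 13.2% and 18.1% of 10850 genes. The median log2 ratio was -0.68 over the 46 and -0.14 over all genes. Of the higher ones, Slc8a1, Slc4a8 (3.99), Slc4a3 and Slc20a2 (2.23) had plate ranges apart, and Slc8a2 (2.53), Slc4a7 (2.04), Slc12a8 (1.36) and Slc26a2 (1.00) did not. Those with plate ranges apart were thus calcium, bicarbonate and phosphate carriers. Of the lower ones, 11 had plate ranges apart: Slc30a10, Slc9a9 (-4.15), Slc12a2, Slc26a11 (-2.70), Slc12a9 (-2.53), Slc31a1 (-1.93), Slc39a10 (-1.59), Slc41a1 (-1.43), Slc31a2 (-1.36), Slc41a3 (-1.26) and Slc30a6 (-1.02). Both copper genes, the SLC12 genes Slc12a2 and Slc12a9 and 2 of the 3 magnesium genes were in that set. The other 6, with overlapping plates, were Slc39a8, Slc30a1, Slc24a3, Slc41a2, Slc39a11 and Slc30a7, at -2.12 to -1.02. Without Mural6 the higher count was 5, and Slc41a1 (-0.98), Slc41a2 (-0.86), Slc39a11 (-0.35), Slc30a7 (-0.72) and Slc26a2 (0.74) were under 2-fold. Slc30a6 was at -0.81 without Mural4 and -0.91 without Mural5, Slc30a7 at -0.69 without Mural4, Slc26a2 at 0.66 without Mural5, and Slc24a3 at -0.84 without Mural3 and -0.79 without Mural5. Slc39a11 was also under 2-fold without Mural3 (-0.86) and without Mural5 (-0.91), and was at -4.03 without Mural4, so its call rests on single plates. Slc30a7 moved to -1.87 without Mural3 and Slc24a3 to -2.19 without Mural6. Some kept their side of 2-fold but moved by over 1.5 times, to -3.81 for Slc26a11 without Mural3, -2.85 for Slc31a1 and 3.19 for Slc4a8 without Mural5, -3.95 for Slc12a9 without Mural6 and -2.20 for Slc30a1 without Mural4.

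In fibroblast-like over oligodendrocyte-like cells, 55 genes were measured, and 28 were at least 2-fold higher and 14 lower, against 37.4% and 14.6% of 12058 genes. The median log2 ratio was 1.05 over the 55 and 0.47 over all genes, and it rests on total reads: TMM factors shifted the median of all genes by -0.58 and DESeq2 size factors by -0.43. The highest were Slc30a10 (6.41), Slc12a7 (5.18), Slc41a3 (5.09), Slc4a4 (4.43) and Slc4a3 (4.07), and the lowest Slc24a2 (-6.38), Slc12a2 (-3.69), Slc34a3 (-3.45), Slc8a1 (-3.39) and Slc12a8 (-3.12). Plate ranges did not overlap for 22 of the 28 and 11 of the 14. The fibroblast-like class rests mostly on plate Pdgfra1 (57 cells, 50550042 reads, against 29 cells and 6307628 reads on Pdgfra2), and on Pdgfra2 alone the sign turned for Slc20a2 (0.62), Slc39a8 (-0.95), Slc41a2 (-1.95) and Slc9a8 (0.23), while Slc26a2 (0.51), Slc12a9 (-0.43), Slc4a8 (-0.10) and Slc4a2 (-0.77) were under 2-fold, Slc12a7 was at 2.89 and Slc8a1 at -5.83. On Pdgfra1 alone Slc20a1 (0.40), Slc9a3r1 (0.53) and Slc9a3r2 (0.26) were under 2-fold.

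The fibroblast-like cluster was not uniform. Of its 87 cells, 9 had more oligodendrocyte-progenitor than fibroblast marker reads, 7 on Pdgfra1 and 1 each on Pdgfra2 and Mural4. Slc9a7 had 80.1 CPM in the 9 cells pooled, with a read in 6 of them, against 0.457 CPM in the other 78, with a read in 1. Slc9a5 had 58.7 CPM in the 9 cells, with a read in 4, against 1.79 CPM in the other 78, with a read in 3. The pooled levels of Slc39a12 (105 CPM in the 9 cells, against 0.935 CPM in the other 78) and Slc9a9 (85.9 CPM, against 18.5 CPM) came from 1 and 2 of the 9 cells alone. Slc24a3 ran the other way, with 3.89 CPM in the 9 cells and a read in 2, against 139.6 CPM in the other 78 and a read in 40. Slc30a10 had 24.5 CPM in the 9 cells, all from 1 cell, against 105 CPM in the other 78, with a read in 26, and Slc12a7 had no read in the 9 cells, against 40.4 CPM in the other 78, with a read in 13. Without the 9 cells, 24 genes were at least 2-fold higher and 15 lower in fibroblast-like over oligodendrocyte-like cells.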

How the data were processed

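Per the labels, single wells were sequenced by Smart-seq2; the submitters' processing notes name STAR 2.4.2a and the mm10 genome, while for the gene counter, the annotation and the cell filters a name is not given in the sources used here. From the authors come 1 deposited table of raw read counts (whole numbers, 3186 cells, 19937 genes) and 1 table of scaled values, handled here as a score because its normalization is not described and each cell sums to 499421 to 501418. The counts were used as deposited, with no cell or gene filtered out, but the unnamed mural cells and the microglia-like cells entered none of the 7 classes.

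Members, markers and pathway lists were chosen with earlier results of these data known. Cells were clustered on 2000 variable genes with a read in 5% of cells or more, without the members, pathway lists and reporter genes, using 30 principal components, 15 neighbours and Leiden resolution 1 (scanpy 1.11.5, leidenalg 0.10.2, Python 3.11.15, numpy 2.4.6, pandas 2.3.3). Clusters were named from the marker lists by each marker's level as a share of its highest level over clusters, with minimum mean shares of 0.25 for a broad class and 0.65 for a zone; this recipe and these limits were settled after clusters had been seen. No doublet caller was run, and wells with markers of another class were left out as an alternative.

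Reads were summed per class and divided by their total. Intervals are exact Poisson for levels (scipy 1.17.1). A gene entered a comparison at 5 CPM or more on either side, and counted as higher or lower at 2-fold or more on log2(CPM + 1). Plate ranges use plates of the class's own line with at least 10 cells of the class, and shares of cells are also given after thinning each cell to 90000 reads. Genes at 20 CPM or more in a class are named with values, except 3 that are not reported here but are counted; list genes are named at 50 CPM or more, at most 4 a list, widest range first. No test was made, because each reporter line is 1 sample. A level of 0 reads allows up to 3 reads. Intervals and such limits cover counting error only, and PCR copies without molecular tags are not independent molecules. Alternatives used edgeR 4.0.16 TMM factors, DESeq2 1.42.0 size factors (R 4.3.3), the authors' scaled table, other clusterings, other minimum levels and each plate left out. Gene positions are from GENCODE M21 on mm10, where all 84 genes were found, and promoter sequences from RefSeq on GRCm38.p6. Figures were drawn with matplotlib 3.10.9. The summing and counting steps were tested on simulated data.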

Additional observations from a re-analysis of the deposited data

Results flagged for a closer look

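In classes that lay on 4 plates, a plate was set apart where its gap to the nearest other plate was large against the whole range (Dixon's 95% limit), which chance alone does in about 1 in 20 sets. Of 139 sets of the 46 named genes, 7 were set apart this way, about as many as chance gives. In arterial-like endothelium, Slc12a7 had 9.40 CPM on plate EC3, against 65.2 to 74.1 CPM on the other plates, and Slc30a4 had 57.7 CPM on EC5, against 21.4 to 25.4 CPM. In venous-like endothelium, Slc39a1 had 103.6 CPM on EC4, against 81.7 to 83.4 CPM. In capillary-like endothelium, Slc39a9 had 93.6 CPM on EC6, against 51.6 to 56.0 CPM. In pericyte-like cells, Slc39a9 had 100.1 CPM on Mural3, against 79.4 to 82.8 CPM. In smooth muscle-like cells, Slc30a9 had 115.5 CPM on Mural6, against 209 to 218 CPM, and Slc9a8 had 8.41 CPM on Mural3, against 30.8 to 34.0 CPM.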

How the results depend on the processing

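No paired analysis was possible because each line is 1 sample and no test was made; ratios within the plates that both classes of a comparison share are given beside the results. Counts in endothelial-like over pericyte-like cells (9 higher, 14 lower) were 7 to 11 and 11 to 18 under the alternatives other than leaving out a plate, and in fibroblast-like over oligodendrocyte-like cells (28 and 14) they were 20 to 33 and 11 to 21. In arterial-like over capillary-like endothelium, the 7 higher genes were 4 at a minimum of 20 CPM, 4 at Leiden resolution 0.5, 4 at resolution 2 and 3 with a random 50% of the genes. The 1 lower gene became 6 with no minimum level, 2 with a pseudocount of 0.1 CPM, the authors' scaled table, the mean of per-cell CPM, wells with other markers left out or resolution 0.5, 3 without the capillary-like cluster led by Fam101b and 3 with cells of the class's own line only, and leaving out a plate gave 1 to 5. In venous-like over capillary-like endothelium, the 1 lower gene became 7 with no minimum level, 0 at resolution 2 and 2 without the Fam101b-led cluster, and 1 to 4 without a plate, while the 3 higher became 1 to 3 without a plate. Resolution 0.5 gave no venous-like class, so that comparison has no value there. The 8 higher genes in smooth muscle-like over pericyte-like cells were 5 with marked wells left out and 5 to 8 without a plate. Signs turned for Slc20a2 in arterial-like over capillary-like endothelium at resolution 0.5 (-0.42) and without a plate (-0.0251 to 1.73), and in fibroblast-like over oligodendrocyte-like cells without a plate for Slc20a2 (-1.95 to 0.62), Slc39a8 (-0.95 to 3.14), Slc41a2 (-1.95 to 4.81) and Slc9a8 (-2.04 to 0.23). The cause was not tested. Under TMM, Slc39a7 (0.46), Slc39a1 (0.65), Slc30a5 (0.88), Slc20a1 (0.90), Slc9a3r1 (0.83) and Slc9a3r2 (0.46) were under 2-fold in the last comparison. Alternatives on the intermediate cluster, the Fam101b-led cluster, own-line cells and progenitor-marked cells were chosen after seeing the data. Depth limits low genes. Apart from depth, levels can rest on few cells. Slc41a2, at 24.8 CPM in pooled fibroblast-like cells, had a read in 3 of the 9 progenitor-marked cells and 8 of the other 78. The 29 fibroblast-like cells of Pdgfra2, with 6307628 reads, held none, and why was not tested.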

Other observations

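The genes that work with these carriers were listed by function, with earlier results of these data known, and their shares can be read against the shares over all genes printed above for each comparison. The sodium gradient that drives many of these carriers is set by the sodium pump. The beta subunit genes had, for Atp1b1, 649 CPM in smooth muscle-like cells, against 1.78 CPM in pericyte-like cells, and, for Atp1b2, 1743 CPM in smooth muscle-like cells, against 2652 CPM in pericyte-like cells. Fxyd1, a regulatory subunit, had 377 CPM in smooth muscle-like cells, against 28.0 CPM in pericyte-like cells. Of the 13 sodium pump genes, 8 were measured in endothelial-like over pericyte-like cells, with 3 at least 2-fold higher and 4 lower, 9 in smooth muscle-like over pericyte-like cells (4 higher, 3 lower), and 9 in fibroblast-like over oligodendrocyte-like cells (7 higher, 2 lower). Within the endothelium, 1 was higher and 2 lower of 7 in arterial-like over capillary-like, and 2 higher and 2 lower of 7 in venous-like over capillary-like cells.

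Carbonic anhydrases supply bicarbonate to the SLC4 and SLC26 carriers. Car4, a membrane-bound form, had 63.1 CPM in arterial-like, 2175 CPM in venous-like and 1571 CPM in capillary-like endothelium and 1612 CPM in pericyte-like cells. Car2, the main cytosolic form, had 12.1 CPM in fibroblast-like cells, against 7396 CPM in oligodendrocyte-like cells, Car14 had 5.48 CPM in fibroblast-like cells, against 246 CPM in oligodendrocyte-like cells, and Car3 156 CPM in fibroblast-like cells, against 2.14 CPM in oligodendrocyte-like cells. Of the 15 carbonic anhydrase genes, 6 were measured in endothelial-like over pericyte-like cells, with 4 at least 2-fold higher and 1 lower, 5 in smooth muscle-like over pericyte-like cells (1 higher, 3 lower), and 8 in fibroblast-like over oligodendrocyte-like cells (5 higher, 2 lower). Of 5 measured in arterial-like over capillary-like endothelium 2 were higher and 2 lower, and of 5 in venous-like over capillary-like 2 higher and 0 lower. WNK and SPAK kinases regulate the SLC12 cotransporters. Wnk1 had 159 CPM in fibroblast-like cells, against 371 CPM in oligodendrocyte-like cells, and Stk39 (SPAK) had 146 CPM in fibroblast-like cells, against 66.8 CPM in oligodendrocyte-like cells. Oxsr1 had 55.7 CPM in smooth muscle-like cells, against 22.7 CPM in pericyte-like cells, and Cab39, a kinase partner, 221 CPM in smooth muscle-like cells, against 83.7 CPM in pericyte-like cells. Of the 10 WNK-SPAK genes, 7 were measured in endothelial-like over pericyte-like cells, with 1 at least 2-fold higher and 1 lower, 7 in smooth muscle-like over pericyte-like cells (3 higher, 0 lower), and 9 in fibroblast-like over oligodendrocyte-like cells (4 higher, 1 lower). Arterial-like over capillary-like endothelium had 0 higher and 0 lower of 7, and venous-like over capillary-like endothelium 0 higher and 2 lower of 7.

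The NHERF proteins bind ezrin-family linkers. Podxl, a surface sialomucin that NHERF2 binds, had 1128 CPM in endothelial-like cells, against 3.97 CPM in pericyte-like cells, Msn (moesin) 634 CPM in endothelial-like cells, against 454 CPM in pericyte-like cells, Rdx (radixin) 327 CPM in endothelial-like cells, against 185 CPM in pericyte-like cells, and Nf2 (merlin) 71.0 CPM in endothelial-like cells, against 45.4 CPM in pericyte-like cells. Of the 6 scaffold genes, 6 were measured in endothelial-like over pericyte-like cells, with 2 at least 2-fold higher and 0 lower, 5 in smooth muscle-like over pericyte-like cells (1 higher, 0 lower), and 5 in fibroblast-like over oligodendrocyte-like cells (3 higher, 1 lower). Within the endothelium, 0 were higher and 0 lower of 6 in arterial-like over capillary-like, and 0 higher and 0 lower of 6 in venous-like over capillary-like cells. Metallothioneins buffer zinc. Mt1 had 211 CPM in endothelial-like cells, against 74.5 CPM in pericyte-like cells and Mt2 64.2 CPM in endothelial-like cells, against 10.1 CPM in pericyte-like cells, while Mtf1, the zinc sensor, had 22.8 CPM in fibroblast-like cells, against 55.0 CPM in oligodendrocyte-like cells. Of the 5 zinc buffering genes, 3 were measured in endothelial-like over pericyte-like cells, with 2 at least 2-fold higher and 0 lower, 3 in smooth muscle-like over pericyte-like cells (0 higher, 1 lower), and 4 in fibroblast-like over oligodendrocyte-like cells (3 higher, 1 lower). Of 3 measured in arterial-like over capillary-like endothelium 0 were higher and 2 lower, and of 3 in venous-like over capillary-like 0 higher and 0 lower.

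Atox1, the copper chaperone, had 314 CPM in endothelial-like cells, against 42.1 CPM in pericyte-like cells. The metal reductase genes had 54.9 CPM of Steap2, 288 CPM of Steap3 and 285 CPM of Steap4 in fibroblast-like cells, against 1.01 CPM of Steap2, 0.0232 CPM of Steap3 and 0.139 CPM of Steap4 in oligodendrocyte-like cells, and the unnamed Agtr1a-led mural cluster had 2483 CPM of Steap4. Of the 10 copper handling genes, 8 were measured in endothelial-like over pericyte-like cells, with 2 at least 2-fold higher and 3 lower, 8 in smooth muscle-like over pericyte-like cells (0 higher, 3 lower), and 9 in fibroblast-like over oligodendrocyte-like cells (5 higher, 1 lower). Arterial-like over capillary-like endothelium had 0 higher and 1 lower of 6, and venous-like over capillary-like endothelium 0 higher and 0 lower of 6. Beside the phosphate importers, Alpl, the phosphatase that degrades pyrophosphate, had 1332 CPM in arterial-like, 25.2 CPM in venous-like and 169 CPM in capillary-like endothelium. Enpp1, which makes pyrophosphate, had 232 CPM in fibroblast-like cells, against 42.4 CPM in oligodendrocyte-like cells. Abcc6 had 73.8 CPM in endothelial-like cells, against 0.612 CPM in pericyte-like cells, and Pdgfb, the ligand that recruits pericytes, 212 CPM in endothelial-like cells, against 1.35 CPM in pericyte-like cells. Of the 8 phosphate genes (7 matched by symbol), 6 were measured in endothelial-like over pericyte-like cells, with 4 at least 2-fold higher and 1 lower, 4 in smooth muscle-like over pericyte-like cells (1 higher, 2 lower), and 5 in fibroblast-like over oligodendrocyte-like cells (3 higher, 1 lower). Within the endothelium, 1 was higher and 0 lower of 5 in arterial-like over capillary-like, and 0 higher and 1 lower of 5 in venous-like over capillary-like cells.

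Among calcium and magnesium genes, Atp2b4, a calcium pump of the plasma membrane, had 354 CPM in smooth muscle-like cells, against 30.6 CPM in pericyte-like cells, and Cnnm2, linked to magnesium transport, 190.0 CPM in smooth muscle-like cells, against 21.3 CPM in pericyte-like cells. Trpm6, a magnesium channel, had 3.93 CPM in arterial-like, 61.4 CPM in venous-like and 27.0 CPM in capillary-like endothelium, and Nipa1 had 42.1 CPM in fibroblast-like cells, against 173 CPM in oligodendrocyte-like cells. Of the 14 calcium and magnesium genes, 13 were measured in endothelial-like over pericyte-like cells, with 1 at least 2-fold higher and 3 lower, 12 in smooth muscle-like over pericyte-like cells (4 higher, 0 lower), and 13 in fibroblast-like over oligodendrocyte-like cells (4 higher, 2 lower). Of 13 measured in arterial-like over capillary-like endothelium 1 was higher and 1 lower, and of 12 in venous-like over capillary-like 1 higher and 0 lower.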
